A study of Mus musculus with 4 samples.

Results

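Maturation of the wild-type (WT) mouse mammary gland was described by setting the WT library taken 5 weeks after tamoxifen against the WT library taken 10 days after it. Tamoxifen was given at puberty, at 4 weeks of age, to every animal in the study (1.5 mg/ml). Genes were included when they reached at least 10 CPM (a gene's count divided by the total of its library, times 1000000) in either WT library. This left 10576 of the 54393 genes in the table. The measure was the log2 ratio of CPM, 5 weeks over 10 days, with no pseudocount. There was 1 library per time point, so the comparison had no replicate error, no gene was tested, and time cannot be told apart from any other difference between the 2 libraries. For single genes an exact 95% interval of the ratio is given (Clopper-Pearson on the split of the summed counts), which covers counting error only.

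The series holds 4 libraries, 1 for each of WT and ΔNp63 conditional knockout (cKO) at each time. ΔNp63 is the short isoform class of the transcription factor p63, and its deletion in the cKO is driven by iK14-Cre, a tamoxifen-inducible Cre recombinase under the keratin 14 promoter. The labels name iK14-Cre and the floxed ΔNp63 allele for all samples and do not say which of these the WT animals carried, how many animals went into a library, or their strain. They also name gland ages of 5 and 35 weeks, which cannot both follow from tamoxifen at 4 weeks with collection 10 days or 5 weeks later, so no age beyond the time since tamoxifen is used here. Glands were dissociated enzymatically, cells carrying CD45, CD31 or Ter119 were removed by sorting, and 100000 cells were used for each library. The WT libraries held 33363255 counts at 10 days and 79122250 at 5 weeks, a depth ratio of 2.37. The 10 CPM minimum thus stood for 334 and 791 counts. The 10 most abundant genes took 6.94% and 6.66% of counts, mitochondrially encoded genes 1.24% and 1.17%, and protein-coding genes 95.2% and 94.1%.

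The mammary epithelium is a tree of ducts with an outer basal layer, whose myoepithelial cells contract to eject milk, and an inner luminal layer. The luminal layer contains hormone-sensing cells, which carry the estrogen, progesterone and prolactin receptors, and progenitor cells that can give rise to milk-secreting alveoli. From puberty into adulthood the ducts elongate through the fat pad and then settle into cycles of side branching under ovarian hormones, within a stroma of fibroblasts and collagen. Keratins 5 and 14 mark the basal layer and keratins 8 and 18 the luminal layer. In bulk libraries such as these, fewer cells of a type and less RNA per cell cannot be told apart.

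The label of mammary epithelial cells was checked against defining markers. Luminal markers summed to 10546 CPM at 10 days and 9603 CPM at 5 weeks, and basal identity markers to 6955 and 20497 CPM. The sorted cells were not epithelial alone, since fibroblast markers, from cells the sort does not remove, summed to 42226 and 32645 CPM. Markers of the cell types that the sort targets were low. The 20 myeloid markers summed to 231.9 and 174.9 CPM (most of it Cd14, which luminal progenitors also express), the 20 lymphocyte markers to 54.6 and 54.1 CPM, the 17 endothelial markers to 305.2 and 376.2 CPM and the 9 red cell markers to 35.5 and 36.8 CPM. None of the 16 skeletal muscle markers and none of the 16 hair follicle markers reached 10 CPM (sums of 7.94 and 12.7 CPM, and of 16.1 and 12.9 CPM).

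Most genes had nearly the same level at both times. The median log2 ratio was -0.03, with quartiles of -0.27 and 0.23, and 8616 genes (81.5%) lay within 1.5-fold. At 5 weeks 432 genes (4.08%) were at least 2-fold higher and 446 (4.22%) at least 2-fold lower, 878 (8.3%) in either direction. Ratios lay above 0 for 4948 genes and below 0 for 5628. The list counts below are to be read beside these shares of all genes. A gene below the minimum at 10 days could enter only if it was higher at 5 weeks, and the reverse. The direction of every such gene was therefore fixed by the minimum. At least 4-fold differences were reached by 128 genes in the higher and 76 in the lower direction, and at least 8-fold by 49 and 18. Counting error was small beside these ratios (median interval half-width 0.10 on the log2 scale). The interval lay off 0 for 8386 genes, a number that reflects depth and not reproducibility. At the edge of the minimum stood Otud3 (9.98 CPM in its higher library, left out) and Gata6 (10.01 CPM, included). At the edge of 2-fold stood Fdps (2.001-fold higher, counted) and Pkm (1.994-fold, not counted). Scaling to the summed luminal markers in place of the library total raised every ratio by 0.135 and gave 541 higher and 340 lower genes, so that 61.4% of the 2-fold genes were higher against 49.2% with library totals.

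**Figure D1:**
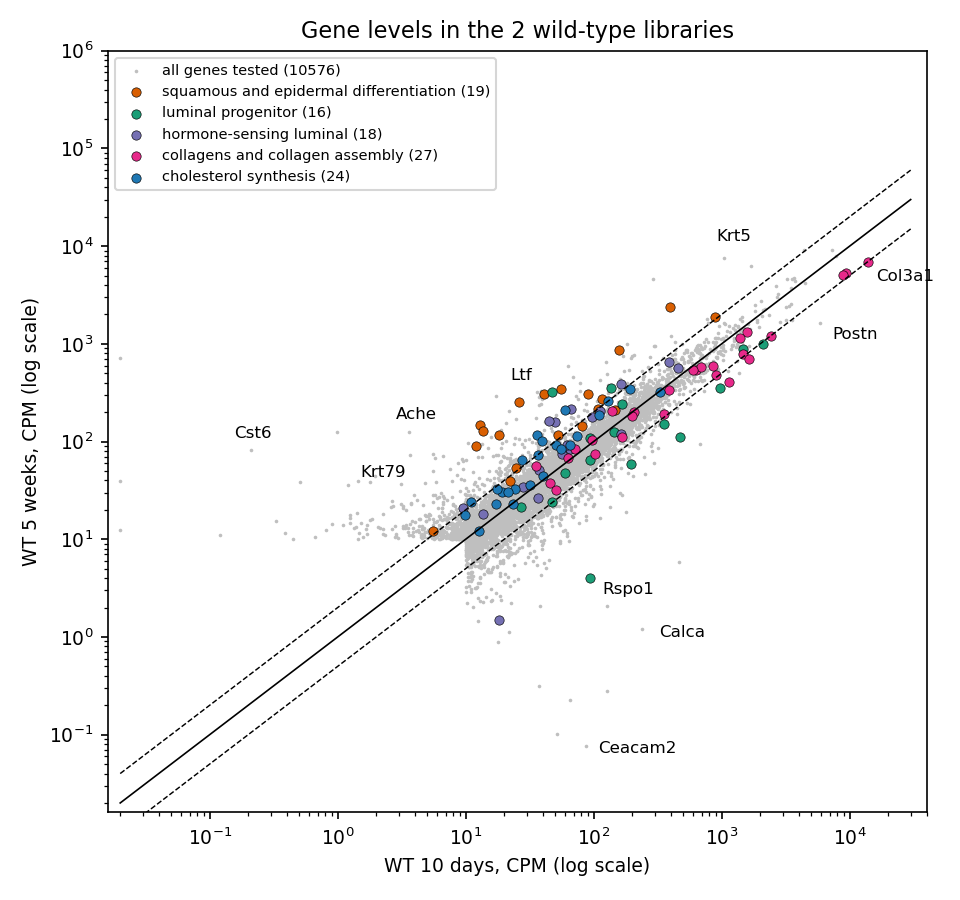
Each point is 1 gene, with its CPM at 10 days on the x axis and at 5 weeks on the y axis (both log scales; values under 0.02 CPM are drawn at 0.02). The solid line marks equal levels and the dashed lines 2-fold. Squamous genes lie above the upper dashed line or near it, and collagen genes mostly below the solid line.

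Squamous and epidermal differentiation genes, which are switched on as stratified epithelia mature, gave the highest list median. Of 38 listed genes 19 reached the minimum, and 16 of these were at least 2-fold higher and 0 lower at 5 weeks. The median log2 ratio of the 19 was 1.76, where that of all 10576 genes was -0.03. A gene that is near 0 at 10 days enters only if it is high at 5 weeks, so this median describes the 19 and not the list. The list summed to 2289 CPM at 10 days and 7930 CPM at 5 weeks.

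Krt6a, an inducible keratin of activated and suprabasal keratinocytes, stood at 396 CPM at 10 days and 2400 CPM at 5 weeks, a 6.06-fold difference (log2 2.60, counting interval 2.57 to 2.62). Its partner Krt16 was at 159 and 867 CPM. Krt13, a keratin of non-cornified squamous linings, was at 55.7 and 347 CPM (log2 2.64). These 3 keratins were all over 5-fold higher at 5 weeks. Krt1 and Krt10, the keratins of the spinous layer, had smaller ratios, at 24.9 and 53.3 CPM and at 90.4 and 306 CPM. The paralog next to Krt6a, Krt6b, had the lowest ratio of the tested squamous genes, at 147 and 209 CPM (log2 0.51). Reads can be divided between such copies, so the single values of Krt6a and Krt6b are uncertain.

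Dsg3, a desmosomal cadherin that joins neighbouring keratinocytes, stood at 26 and 255 CPM (log2 3.30, counting interval 3.20 to 3.40). Spink5, an inhibitor of the proteases that shed surface cells, was at 13.0 and 147 CPM and had the highest log2 ratio of the list (3.50). Calml3, a calmodulin-like protein of epithelial cells, was at 13.5 and 129 CPM (log2 3.25). Of the 5 desmosomal cadherins that reached the minimum, 4 were at least 2-fold higher, and Dsg2, the form of simple epithelia, was the exception at a log2 ratio of -0.40. Dsg1b, among the 4, reached the minimum only at 5 weeks (5.52 and 12.1 CPM), which fixed its direction.

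The small proline-rich proteins, which are cross-linked into the cornified envelope, were higher in each of the 5 genes tested. Of these, Sprr2f (5.60 and 73.9 CPM) and the polymorphic pseudogene Sprr2g (1.80 and 15.6 CPM) reached the minimum only at 5 weeks. Their direction was therefore fixed by the minimum. Sprr1a was at 41.2 and 308 CPM (log2 2.90), and Sprr2a2 at 69.3 and 455 CPM (log2 2.72). The Sprr2 genes are near-identical copies among which reads can be divided, so their single values are uncertain. Sprr1b, below the minimum, was at 2.64 and 1.67 CPM. Of the 19 tested keratins 11 were at least 2-fold higher and 1, Krt23, was lower. Krt78 and Krt79, among the 11, reached the minimum only at 5 weeks, and Krt23 only at 10 days, which fixed their directions. Krt79, a keratin described in the ducts of skin glands and the hair canal, was at 1.20 and 35.6 CPM (log2 4.89).

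Several genes of the latest, cornified stage were near 0 in both libraries, unlike the cornified envelope genes Sprr1a and Sprr2a2 above. Loricrin (Lor) was at 0.36 and 0.56 CPM and involucrin (Ivl) at 0.51 and 2.27 CPM. Filaggrin (Flg) had 1 count at 10 days and 4 at 5 weeks, and Flg2 0 in both, where 3 counts stand for 0.090 and 0.038 CPM. Hair follicle markers, whose sums are given above, were not higher at 5 weeks. Whether skin or nipple epithelium contributed to the squamous transcripts was not tested.

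The 250 bases before the start of the squamous genes were searched for the AP-1 site, the letters TGACTCA on either strand, a sequence known from keratinocyte genes. Promoter sequences came from RefSeq (GRCm38.p6). It was found in 6 of the 25 listed genes with a promoter in that table and in 5.16% of all 27025 genes in it. The 6 were Krt13 (at a second listed start), Lor, Ivl, Krtdap, Sprr1a and Sprr2d. Krtdap, a secreted keratinocyte differentiation protein, was at 12.1 and 90.0 CPM (log2 2.90). Sprr1a held the match 2 times, beginning 146 and 116 bases before the start, and Krtdap 1 time, 81 bases before it. A match is only a run of letters in this window. The promoters of these 2 genes are printed because both genes held a match before their first listed start and were over 7-fold higher at 5 weeks, with Sprr1a at chr3:92485882-92486131 on the minus strand and Krtdap at chr7:30787655-30787904 on the plus strand, each 5′ to 3′ in the direction of the gene and with the matches in capitals.
Sprr1a: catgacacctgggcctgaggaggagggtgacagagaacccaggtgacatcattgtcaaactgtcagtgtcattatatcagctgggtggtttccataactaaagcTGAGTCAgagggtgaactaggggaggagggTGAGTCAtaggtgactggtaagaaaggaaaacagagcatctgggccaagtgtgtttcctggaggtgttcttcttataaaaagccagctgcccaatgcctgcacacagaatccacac
Krtdap: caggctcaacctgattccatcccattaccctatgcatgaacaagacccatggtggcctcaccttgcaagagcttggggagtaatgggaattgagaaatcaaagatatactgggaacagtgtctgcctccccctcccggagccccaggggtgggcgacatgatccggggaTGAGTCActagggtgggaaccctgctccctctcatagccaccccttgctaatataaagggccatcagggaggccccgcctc

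The basal identity list had a median ratio above 0, and the contractile list of the same layer had one below 0 with no gene 2-fold lower. Of 22 basal identity genes, all of which were tested, 8 were at least 2-fold higher and 0 lower, 17 lay above 0, and the median log2 ratio was 0.59. Of 20 contractile genes 1 was at least 2-fold higher and 0 lower, 17 lay below 0, and the median was -0.50. The contractile list summed to 7534 CPM at 10 days and 5101 CPM at 5 weeks. The basal identity sum was 0.92 times the contractile sum at 10 days and 4.02 times at 5 weeks. As for the squamous genes, whether skin or nipple epithelium contributed to the basal identity transcripts was not tested.

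Krt5 stood at 1051 CPM at 10 days and 7602 CPM at 5 weeks, a 7.23-fold difference (log2 2.85, counting interval 2.84 to 2.87). Krt14, its keratin partner and the gene whose promoter drives the Cre, was at 1690 and 6323 CPM (log2 1.90). Krt15, a keratin of basal layers, was at 183 and 990 CPM (log2 2.43). Not every basal keratin shared this pattern, since Krt17 was at 705 and 712 CPM.

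Trp63, which encodes p63, was at 48.3 and 156 CPM (log2 1.69, counting interval 1.62 to 1.77). The gene lies on GRCm38 chromosome 16 from 25683763 to 25892102, and its count holds all isoforms. Col17a1, the hemidesmosome collagen, was at 296 and 950 CPM (log2 1.68), and the integrin gene Itgb4 of the same structure at 185 and 383 CPM. Tns4, an adaptor of focal adhesions, was at 38.9 and 242 CPM (log2 2.64). The laminin chain genes Lama3 and Lamb3, whose products lie on the outer face of the hemidesmosome, did not share the difference, with log2 ratios of -0.13 and -0.57.

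Acta2, smooth muscle actin, was at 1308 CPM at 10 days and 671 CPM at 5 weeks (log2 -0.96, counting interval -0.98 to -0.95). Actg2, the enteric form of that actin, was at 41.9 and 21 CPM, which is just under 2-fold. Smooth muscle myosin (Myh11) was at 695 and 425 CPM, and the oxytocin receptor gene Oxtr, through which milk ejection is triggered, at 99.7 and 53.9 CPM. Of the 3 contractile genes with ratios above 0, only Des (desmin) was at least 2-fold higher, at 16.7 and 34.7 CPM. Vascular smooth muscle and pericytes express several contractile genes too, and their 10 tested markers had a median of 0.48 with 3 at least 2-fold higher, while the list summed to 1348 and 1149 CPM.

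**Figure D2:**
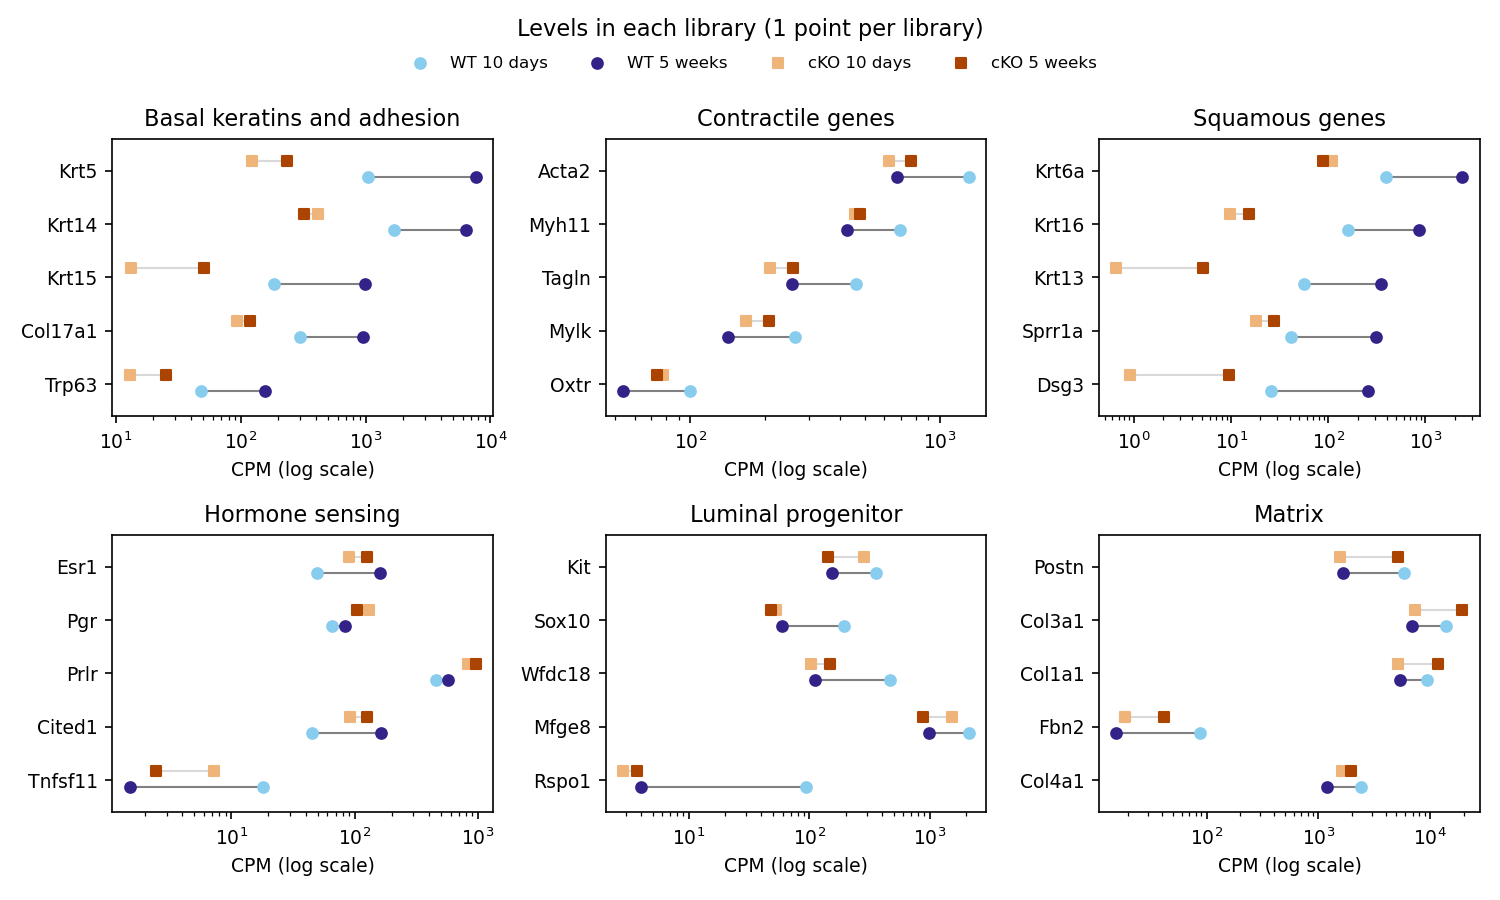
CPM (log scale) of 5 genes in each of 6 groups, with 1 point per library: circles for WT and squares for cKO, and a line joining the 10-day and 5-week libraries of a genotype. In WT the basal and squamous genes lie to the right at 5 weeks and the contractile, progenitor and matrix genes to the left, while in cKO Acta2, Myh11, Tagln, Mylk and all 5 matrix genes lie the other way.

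General luminal markers stood close together at the 2 times. Of 19 tested, 1 was at least 2-fold higher and 1 lower. The median was -0.13, which became 0.01 when libraries were scaled to the luminal markers themselves. Krt8 was at 3186 and 2396 CPM (log2 -0.41) and Krt19 at 1445 and 1723 CPM (log2 0.25). Elf3, an epithelial transcription factor, was at 162 and 441 CPM (log2 1.45), and Muc1, the apical mucin, at 136 and 44.8 CPM (log2 -1.60).

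Within the luminal lineage, hormone-sensing genes were mostly higher and progenitor genes mostly lower at 5 weeks. Of 18 hormone-sensing genes 5 were at least 2-fold higher and 1 lower, with a median of 0.52 and a sum of 1871 CPM at 10 days and 3064 CPM at 5 weeks. Of 16 progenitor genes 2 were at least 2-fold higher and 6 lower, with a median of -0.62 and sums of 6462 and 3852 CPM. In cKO the hormone-sensing list summed to 3639 and 3489 CPM, and the progenitor list to 5618 and 4379 CPM. The 10-day WT library thus had the lowest hormone-sensing sum and the highest progenitor sum of the 4 libraries.

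Among the receptors, Esr1, the estrogen receptor gene, stood at 49.8 and 160 CPM (log2 1.69, counting interval 1.62 to 1.76). Pgr, the progesterone receptor gene and itself a target of estrogen, was at 65.4 and 83.9 CPM (log2 0.36), and Prlr, the prolactin receptor gene, at 459 and 570 CPM (log2 0.31). The estrogen receptor transcript thus differed over 3-fold and the other 2 receptors under 1.5-fold.

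Of the genes that act with these receptors, Cited1, a coactivator of the estrogen receptor, was at 45.1 and 162 CPM (log2 1.85) and Stc2, a secreted glycoprotein induced by estrogen, at 66.8 and 215 CPM (log2 1.69). Areg, the growth factor amphiregulin that relays the estrogen signal to the stroma, was at 111 and 208 CPM (log2 0.90). Wnt4, a paracrine signal downstream of progesterone, was at 96.7 and 180 CPM. The other progesterone relay differed in the opposite direction. Tnfsf11, which encodes RANKL, was at 18.1 CPM at 10 days and 1.49 CPM at 5 weeks (605 and 118 counts, log2 -3.60, counting interval -3.90 to -3.32). Calca, the calcitonin and CGRP gene, was at 240 CPM at 10 days and 1.21 CPM at 5 weeks, a 198-fold difference (log2 -7.63). Tnfsf11 and Calca reached the minimum only at 10 days, which fixed their directions.

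Among progenitor genes, Rspo1, a secreted enhancer of Wnt signalling, was at 94.2 and 4.03 CPM (log2 -4.55, counting interval -4.72 to -4.38). Wfdc18, a whey acidic protein family member, was at 469 and 112 CPM (log2 -2.07). The transcription factor gene Sox10 was at 195 and 59.0 CPM (log2 -1.72) and the receptor kinase gene Kit at 355 and 153 CPM (log2 -1.22). All 4 were over 2-fold lower at 5 weeks, though Rspo1 reached the minimum only at 10 days, which fixed its direction. Sox10 is also a glial gene, and the 9 tested Schwann cell and nerve markers had 1 member at least 2-fold higher and 2 lower.

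Ltf, lactoferrin, had the highest ratio of the progenitor list, of which 4 of 16 genes lay above 0, at 47.6 and 319 CPM (log2 2.75). Its 10-day WT value was also far below both cKO libraries (830 and 626 CPM). Csn3 (kappa-casein) was at 136 and 349 CPM, against Mfge8, the milk fat globule protein, at 2109 and 987 CPM and Trf, transferrin, at 968 and 352 CPM.

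Milk genes were divided. Of 20 listed genes 12 were tested, of which 4 were at least 2-fold higher and 5 lower. The median of 0.24 turned to -0.48 when every gene with a count was included. Lalba, the alpha-lactalbumin gene of lactose synthesis, was at 3.72 and 23.2 CPM (log2 2.64). Csn1s1, a casein gene, was at 22.5 and 2.24 CPM (log2 -3.33), and Cel, the milk lipase gene, at 18.6 and 2.60 CPM (log2 -2.84). Lalba reached the minimum only at 5 weeks, and Csn1s1 and Cel only at 10 days, which fixed their directions.

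Of 30 tested ductal growth genes 0 were at least 2-fold higher and 1 lower, where 4.08% and 4.22% of all genes tested were. That gene, Hgf, the stromal ligand of the Met receptor, was at 37.1 and 16.7 CPM (log2 -1.15). Fgfr2, a receptor needed for ductal outgrowth, was at 242 and 454 CPM (log2 0.91). Of 24 Wnt and R-spondin genes 2 were at least 2-fold higher (Dkk2 and Sfrp4, both Wnt antagonists) and 4 lower, which is 8.33% and 16.7% of the list. Besides Rspo1 these were the ligand gene Wnt5b (67.1 and 21.3 CPM), the R-spondin receptor gene Lgr6 (137 and 48.0 CPM) and the antagonist gene Wif1 (32.7 and 11.9 CPM). Of 15 Notch pathway genes 0 were at least 2-fold higher and 1, the target gene Heyl (20.5 and 9.29 CPM), was lower. Heyl reached the minimum only at 10 days, which fixed its direction. Of 25 TGF-β and BMP genes 1, the BMP target Id1 (18 and 42.8 CPM), was higher and 0 were lower.

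**Figure D3:**
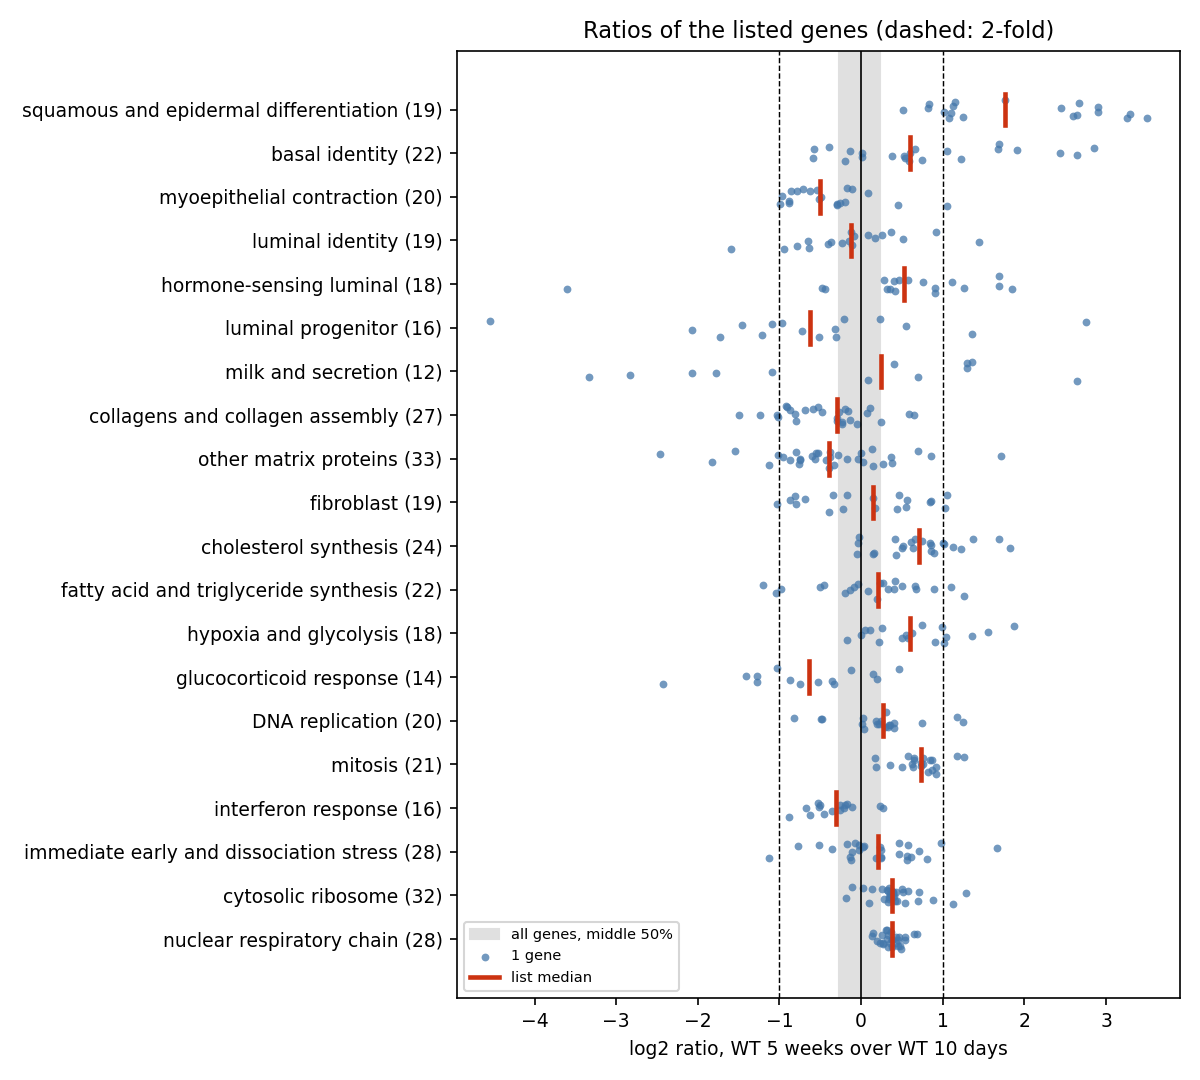
Log2 ratios (5 weeks over 10 days) of the tested genes of 20 lists, with 1 point per gene, the list median as a red bar and the middle 50% of all genes as a grey band. Squamous, basal identity, cholesterol and mitosis medians lie to the right of the band, and contractile, progenitor, matrix and glucocorticoid medians to the left.

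Mitosis genes were all higher at 5 weeks, by small amounts. Of 30 listed genes 21 were tested, all 21 ratios were above 0, 2 were at least 2-fold higher, and the median was 0.73. The 9 left out, each below 10 CPM in both libraries, were also higher at 5 weeks. Mki67, the proliferation marker, stood at 45.0 and 84.7 CPM (log2 0.91, counting interval 0.83 to 0.99). Cdc20, an activator of the anaphase-promoting complex, was at 11.1 and 26.5 CPM (log2 1.26), and Top2a, a topoisomerase that untangles chromosomes, at 34.9 and 59.0 CPM (log2 0.76).

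DNA replication genes differed less, with a median of 0.27 over 20 tested genes, of which 2 were at least 2-fold higher. Those were Rrm2 (8 and 18.9 CPM) and Tk1 (7.40 and 16.6 CPM), both of nucleotide supply. Both reached the minimum only at 5 weeks, which fixed their direction. Pcna, the replication clamp gene, was at 89.5 and 90.5 CPM. Of 22 p53 target and growth arrest genes 1 was at least 2-fold higher and 2 lower (4.55% and 9.09%), against 4.08% and 4.22% of all genes tested. The higher one was Perp, which is also a desmosome gene and a p63 target, at 125 and 657 CPM (log2 2.39). The lower ones were Cdkn1c, a cell cycle inhibitor (45.1 and 18.7 CPM), and Gas1 (233 and 111 CPM).

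Most of the listed collagen and other matrix genes had ratios below 0. Of 27 tested genes of collagens and their assembly 0 were at least 2-fold higher and 4 lower, with 22 below 0, a median of -0.30 and a sum of 47369 CPM at 10 days and 27208 CPM at 5 weeks. Of 33 other matrix genes 1 was at least 2-fold higher and 5 lower, with 23 below 0 and a median of -0.39. The lower genes were 14.8% and 15.2% of these lists, against 4.22% of all genes tested. The collagen list leaves out some chains. Of all 33 collagen chain genes tested, 2 were at least 2-fold higher and 11 lower, with a median of -0.73. Col25a1, among the 11, reached the minimum only at 10 days (13.6 and 2.26 CPM), which fixed its direction. Longer transcripts had slightly lower ratios in general, with a median of 0.14 in the shortest 25% of all genes and -0.14 in the longest 25%. Of the 2 lists, 9 of the 27 collagen and assembly genes and 13 of the 33 other matrix genes were in that longest class. The part of length in these medians was not tested.

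Col3a1, a fibrillar collagen of loose connective tissue, stood at 13952 CPM at 10 days and 6852 CPM at 5 weeks (log2 -1.03, counting interval -1.03 to -1.02). Col1a1 was at 9311 and 5329 CPM (log2 -0.81). Of the basement membrane chains, Col4a1 was at 2409 and 1190 CPM and Col4a2 at 1636 and 696 CPM (log2 -1.23). Col16a1, a collagen that sits on fibril surfaces, had the lowest ratio of its list, at 1151 and 408 CPM, a 2.82-fold difference.

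Postn, periostin, a matricellular protein of remodelling stroma, was at 5853 and 1653 CPM, a 3.54-fold difference (log2 -1.82). Fbn2, the fibrillin of developing tissue, was at 86.5 and 15.6 CPM (log2 -2.47), while Fbn1, the adult form, was at 593 and 486 CPM. Of the 10 other matrix genes with ratios above 0, only Tnc, tenascin-C, was at least 2-fold higher, at 20.9 and 68.5 CPM (log2 1.71).

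Fibroblast markers had no common direction, with 10 of 19 ratios above 0 and 9 below. Gsn (gelsolin) was at 4372 and 9094 CPM (log2 1.06), and Pi16, a marker of adventitial fibroblasts, at 148 and 302 CPM (log2 1.03). Dcn, decorin, was at 2729 and 3025 CPM. Over the 19 tested fibroblast markers 2 were at least 2-fold higher and 1, Col3a1, lower, with a median of 0.15. Of 21 matrix proteases and their inhibitors 0 were 2-fold different in either direction.

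Genes of cholesterol synthesis were higher at 5 weeks. Of 24 tested genes 7 were at least 2-fold higher and 0 lower, 21 lay above 0, and the median was 0.70. Idi1, an isomerase of the isoprenoid stage, stood at 35.9 and 115 CPM (log2 1.68), and Msmo1, a sterol demethylase, at 39.7 and 102 CPM (log2 1.37). Srebf2, the transcription factor gene that controls the pathway, was at 331 and 323 CPM.

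Hmgcs1, which makes the substrate of the rate-limiting reductase, was at 129 and 261 CPM (log2 1.02). The sterol response sequence known from genes of this pathway, searched as the letters TCACNCCAC on either strand, was found in the 250 bases before the start of 1 of 17 matched genes, Hmgcs1, and in 1.22% of all genes of the promoter table. The match begins 137 bases before the start. Its promoter (RefSeq, GRCm38.p6, chr13:119690101-119690350, plus strand, 5′ to 3′) is printed with the match in capitals because it was the only one of the 17 that held these letters.
Hmgcs1: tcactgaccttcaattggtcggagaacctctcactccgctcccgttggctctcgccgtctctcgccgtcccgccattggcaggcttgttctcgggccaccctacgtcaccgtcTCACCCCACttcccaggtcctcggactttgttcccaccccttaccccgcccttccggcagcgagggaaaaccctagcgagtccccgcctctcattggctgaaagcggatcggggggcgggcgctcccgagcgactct

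Among fatty acid and triglyceride genes there was no common direction, with 2 of 22 at least 2-fold higher, 2 lower and a median of 0.21. Scd2, a desaturase gene, was at 130 and 312 CPM (log2 1.26), and Fads2, another desaturase gene, at 230 and 99.5 CPM (log2 -1.21). Adipocyte markers, a possible source of such transcripts, summed to 863 and 797 CPM and had 0 of 8 tested genes 2-fold different in either direction.

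Glycolysis and hypoxia-related genes were higher, with 5 of 18 tested at least 2-fold higher, 0 lower and a median of 0.60. Slc2a1, the glucose transporter gene GLUT1, was at 196 and 719 CPM (log2 1.88), and Hk2, a hexokinase gene, at 129 and 378 CPM (log2 1.55). Vegfa, a classical hypoxia target, was at 202 CPM in both libraries. Nuclear genes of the respiratory chain lay above 0 in all 28 members (median 0.37), and cytosolic ribosome genes in 30 of 32 (median 0.38), with 0 and 2 at least 2-fold higher. Of these genes, 18 of the 28 and 25 of the 32 were in the shortest 25% of transcripts, whose median over all genes was 0.14, and the part of length was not tested. The 12 tested mitochondrially encoded genes had a median of -0.14.

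Genes induced by glucocorticoids were lower, with 0 of 14 at least 2-fold higher, 5 lower and a median of -0.64. Angptl4, an inhibitor of lipoprotein lipase, was at 250 and 46.7 CPM (log2 -2.42). Lcn2, lipocalin 2, was at 1356 and 509 CPM (log2 -1.41), and Fkbp5, a chaperone of the receptor, at 59.6 and 24.6 CPM (log2 -1.28). Of 16 circadian genes 0 were at least 2-fold higher and 2 lower, among them Cry1, a repressor of the clock (43.5 and 19.2 CPM).

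Of 16 interferon response genes 0 were 2-fold different in either direction (median -0.31). Of 17 antigen presentation genes 0 were at least 2-fold higher and 2, Cd74 and H2-Eb1 of the MHC class II pathway, lower. Of 19 chemokine and cytokine genes 2 were at least 2-fold higher and 4 lower. Il33, an alarmin, was at 9.56 and 52.4 CPM (log2 2.45), Tnf at 40.7 and 9.73 CPM (log2 -2.06) and Lif, a cytokine of the IL-6 family, at 288 and 79.6 CPM (log2 -1.86). Immediate early genes, which tissue dissociation induces, had a median of 0.21 over 28 genes with 1 at least 2-fold higher and 1 lower. Fosb was at 7808 and 7963 CPM.

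Outside the lists, the genes with the highest ratios among those with at least 200 CPM in the higher library included Chd9, a chromatin remodeler, at 62.7 and 596 CPM (log2 3.25). Car12, a membrane carbonic anhydrase, was at 21.9 and 203 CPM (log2 3.22). Aqp3, a channel for water and glycerol, was at 37.1 and 236 CPM (log2 2.67). Ly6d, a surface protein of keratinocytes, was at 36.2 and 324 CPM (log2 3.16). In the lower direction Chil1, a secreted chitinase-like protein, was at 677 and 94.8 CPM (log2 -2.84). Cst6, a protease inhibitor of skin and glands, had the highest ratio among named genes with a count in both libraries, at 0.21 and 81.6 CPM (7 and 6455 counts, log2 8.60, counting interval 7.56 to 9.92).

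The cKO pair gives the same interval of time in other libraries, with none shared with the WT pair. Over the genes tested in WT, 217 of 10575 (2.05%) were at least 2-fold higher in cKO at 5 weeks and 148 (1.4%) at least 2-fold lower. Of these, 71 were higher in both genotypes, which is 16.5% of the WT list and 32.7% of the cKO list. A further 48 were lower in both (10.8% and 32.4%). With 1 library per genotype and time there was no residual for an interaction, so no difference between the genotypes was tested. Krt5 had a log2 ratio of 0.92 in cKO (123 and 234 CPM) against 2.85 in WT, and Krt14 -0.37 (412 and 318 CPM) against 1.90. The squamous list summed to 977 and 907 CPM in cKO, where 7 of its 19 tested genes were at least 2-fold higher, 0 lower and 16 above 0 (median 0.66). Some of the 7 were near the floor in cKO at 10 days: Spink5 at 0.095 CPM, Krt1 and Krt13 at 0.66 CPM and Dsg3 at 0.91 CPM. The more abundant Krt6a and Sfn had cKO log2 ratios of -0.32 and -0.44.

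**Figure D4:**
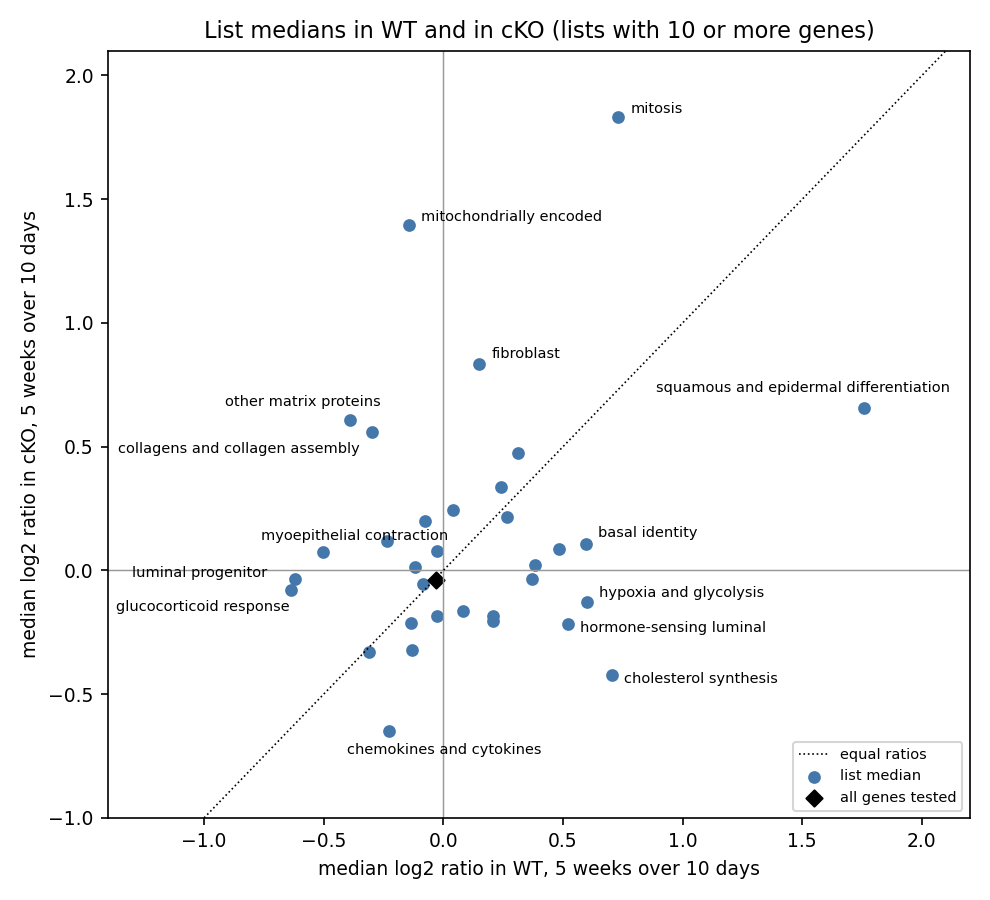
Median log2 ratio (5 weeks over 10 days) of each list with at least 10 tested genes, in WT on the x axis and in cKO on the y axis; the diamond is the median of all genes and the dotted line marks equal ratios. Squamous and mitosis medians are above 0 in both genotypes, the collagen and other matrix medians are below 0 in WT and above 0 in cKO, and the cholesterol median is above 0 in WT and below 0 in cKO.

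The medians of the collagen and other matrix lists had opposite signs in the 2 genotypes. The collagen list summed to 29295 and 58395 CPM in cKO, with a median of 0.56, and the other matrix genes had a cKO median of 0.61. Of the 446 genes at least 2-fold lower in WT, 33 (7.4%) were at least 2-fold higher in cKO, as were 2.05% of all genes. Of the 431 higher in WT with a cKO ratio, 17 (3.9%) were at least 2-fold lower in cKO, as were 1.4% of all genes. Among genes that also had at least 10 CPM in either cKO library, 37 were at least 2-fold different in opposite directions, 24 of them lower in WT and higher in cKO. Besides Postn and Col3a1 these included Reln, reelin, a secreted glycoprotein (62.0 and 10.9 CPM in WT), Lrrc15, a marker of activated fibroblasts (86.7 and 17.2 CPM), and Frem1, a basement membrane protein (69.2 and 17.1 CPM). The other 13 included Hmgcs1, the estrogen target Greb1 and the long noncoding RNA Neat1 (779 and 1630 CPM in WT). The mitosis list was higher in both pairs, with a median of 1.83 in cKO.

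A few genes had near-absent levels at one time in both genotypes, several of them members of near-identical gene families. Ceacam2 was at 86.4 and 0.076 CPM in WT and 55.1 and 0.18 CPM in cKO, while its paralog Ceacam1 was at 248 and 229 CPM in WT. C1rb and C1s2, copies of complement genes, were at 21.8 and 1.11 CPM and at 38.4 and 2.09 CPM in WT and had cKO ratios of -3.83 and -3.77. Tpm3-rs7, related to tropomyosin genes, stood at 0.99 and 125 CPM in WT, with 1.48 and 54.6 CPM in cKO. BC018473 had 0 counts in WT at 10 days and 3147 at 5 weeks, which is at least 442-fold higher against a floor of 3 counts in the 10-day library, and was at 0.22 and 55.6 CPM in cKO. Reads of such genes can be divided among copies, so their values are uncertain. The labels used here give neither strain nor batch for the 2 times, and a difference of either cannot be told apart from time.

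In another group the 10-day WT library stood apart from the other 3. Ache, acetylcholinesterase, was at 3.60 CPM there and at 126 CPM in WT at 5 weeks, with 115 and 75.5 CPM in cKO. Its neighbour Ufsp1 was at 1.80 and 38.8 CPM in WT and 31.4 and 21.8 CPM in cKO, and Gemin4 at 0.12 and 11 CPM against 12.5 and 8.18 CPM in cKO. For Calca, Rspo1 and Entpd8, an ectonucleotidase gene, the 10-day WT library was instead the high one, since cKO levels did not exceed 5.05 CPM for any of the 3. The transcription factor genes Pax8 and Pax2 were high in the 5-week WT library alone, at 15.2 and 11.5 CPM, with at most 0.39 CPM in each of the other libraries. Each of these differences rests on 1 library.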

How the data were processed

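Messenger RNA was sequenced in 4 libraries of sorted mouse mammary cells, and the 2 WT libraries were compared here. The authors deposited estimated counts per gene (54393 identifiers, whole numbers, 0 columns of other samples). Per the submitters' processing notes, Salmon and GRCm38 were used, with no role or version named. The authors' annotation, filters and strand setting are not given in the sources used here. Salmon divides reads among similar transcripts by a model, so paralogs, overlapping genes and antisense genes are uncertain. All identifiers matched GENCODE M21, which supplied symbols, positions and exon lengths.

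CPM values are counts over the library total, without a pseudocount. Where a library had 0 counts, 3 counts stood in as a bound. No normalized values, p-values or models were used, since 1 library per time leaves 0 residual degrees of freedom. Totals of 33363255 and 79122250 counts set the counting intervals, which do not cover the spread between animals. The ratio and interval code was checked on simulated data. Python 3.11.15, scipy 1.17.1, R 4.3.3 and edgeR 4.0.16 (for scaling factors only) were used.

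The comparison and the 41 gene lists were chosen with earlier results of these data known, and the lists come from textbook knowledge. Named by rule, leaving out predicted genes, pseudogenes and mitochondrial genes, were the 12 highest and 12 lowest ratios, the 10 highest and 10 lowest among genes with at least 200 CPM in the higher library, the 3 members with the largest absolute ratio and the 2 most abundant of each list, and Trp63, Esr1, Pgr and Prlr. Other genes named, such as Krt13, Krt16, Kit, Hmgcs1, Ceacam1 and Reln, were chosen after their values were seen. A few genes that the rule names are not reported here. A total of 8 motif and list pairs were searched in promoters. The 12 alternatives were 3 scaling methods (TMM, RLE and upper-quartile factors), 3 library totals, 3 minimum levels, a pseudocount of 1 CPM, thinning to equal depth, and protein-coding genes alone.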

Additional observations from a re-analysis of the deposited data

Results flagged for a closer look

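Some results had opposite directions in the WT and cKO libraries over the same interval of time. None of these differences was tested, because each genotype had 1 library per time. The list of other matrix proteins had a median log2 ratio of -0.39 in WT and 0.61 in cKO. Cholesterol synthesis genes had a median of 0.70 in WT and -0.42 in cKO. Among single genes with at least 2-fold differences in both genotypes, Fbn2 had -2.47 in WT and 1.16 in cKO. Postn had -1.82 in WT and 1.71 in cKO, and Col3a1 -1.03 in WT and 1.40 in cKO. Fibroblast markers summed to 42226 and 32645 CPM in WT and to 40809 and 63110 CPM in cKO. These sums hold Col1a1, Col1a2 and Col3a1, collagen genes themselves, so they do not measure fibroblasts apart from matrix. Those genes were at 9311, 8861 and 13952 CPM in WT at 10 days, and at 5329, 5079 and 6852 CPM at 5 weeks. In cKO they were at 5214, 5276 and 7377 CPM, and at 11791.5, 10706 and 19476 CPM. The part of fibroblasts in the matrix ratios was not tested.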

How the results depend on the processing

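The comparison was repeated under 12 alternatives, each changing 1 choice, except that protein-coding genes alone were also scaled to their own total. The count of genes at least 2-fold higher ran from 305 (at least 20 CPM) to 548 (at least 5 CPM), and that of lower genes from 340 to 573, apart from the setting with no minimum beyond 1 count, where 2306 genes were higher and 7084 lower. That setting tested 31404 genes, most of them with few counts. TMM factors gave 485 higher and 369 lower genes. Of 108 named genes past 2-fold, 0 changed sign under any alternative and 7 crossed 2-fold, among them Col3a1 and Mfge8. Scaling moved ratios by at most 0.135, so it could not change the sign of a ratio past 2-fold. The 5 named genes that changed sign were Fgfr1, Hba-a2, Srebf2, Errfi1 and Calr. Of 39 list medians 14 changed sign under at least 1 alternative, none of them larger in size than 0.41. These were the general luminal, milk, Wnt, Notch, TGF-β and BMP, p53, protease, lymphocyte, adipocyte, Schwann cell, melanocyte, red cell, antigen presentation and circadian lists. The squamous median ran from 1.13 to 2.1, and the medians of the basal, contractile, hormone-sensing, progenitor, mitosis, collagen and cholesterol lists kept their sign under all 12. Depth was high enough that counting error was small for the genes included, and differences between animals could not be measured. No paired analysis was possible because each group had 1 library and the labels give no replicate numbers.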

Other observations

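The processed pseudogene Gm12671, which the naming rule leaves out, had 0 counts in WT at 10 days and 57107 counts (722 CPM) in WT at 5 weeks, with 141 and 316 CPM in the 2 cKO libraries. The splicing factor gene Cwc22, chosen after its values were seen, was at 166 and 28.2 CPM in WT and 263 and 22.3 CPM in cKO. Across the 10575 genes with a ratio in both genotypes, which are not independent replicates, the WT and cKO ratios had a Pearson correlation of 0.26 and a Spearman correlation of 0.01, given as a description with no test. Has3, a hyaluronan synthase gene, was among the highest WT ratios, at 3.66 and 72.3 CPM, with no more than 2.02 CPM in cKO.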
